A study of Mus musculus with 12 samples.

Results

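Mouse ESCs expressing PRAMEL7 without its N-terminus (ESC + H/F-PRAMEL7ΔN, here ΔN) were compared with parental ESCs by sequencing of polyadenylated RNA. The genes described are those with a value above 0 in both libraries of either line, 19901 of the 50978 in the deposited table. Of these, 19304 had a unique match in the annotation, 597 did not, and 12913 passed the filter on low values and were tested. Both lines had reads in both libraries for 16623 genes, parental ESCs alone for 1570 and ΔN alone for 1111.

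Each line is represented by 2 libraries, from separate dishes per the labels, so the p-values measure the spread between dishes. The parental line is E14, an ESC line grown with 15% serum and LIF. ΔN carries a tagged, truncated PRAMEL7 under the ubiquitous CAG promoter at the Rosa26 locus and was grown from a single cell. Parental ESCs carry no such transgene, so the comparison does not isolate the removal of the N-terminus. Per the study's methods, the transgene was inserted with Cas9 and the cells were selected with puromycin before cloning. Expression of the truncated PRAMEL7, its insertion, the drug selection and the history of the clone cannot be told apart. The sample labels give a deletion of 50 residues, whereas the study's text gives a smaller number. A clone of the same design with full-length PRAMEL7 (ESC + H/F-PRAMEL7WT, 2 libraries) was set beside named genes and chromosomes. The derived lines, ΔN and this clone, share the parental controls. Libraries of the full-length line also entered the filter on low values and the shared estimate of spread behind each call. A fit of the compared libraries alone gave 322 genes upregulated and 925 downregulated, against 370 and 1086. Reads on genes ranged from 18281201 to 19735570 in the 4 compared libraries. Levels are given in CPM, reads scaled to the size of the library.

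PRAMEL7 belongs to a family of leucine-rich repeat proteins of germ cells and the early embryo. Members of this family can act as the substrate receptor of a CUL2 ubiquitin ligase, in which the receptor binds the protein to be degraded while Elongin B and C hold it to the CUL2 scaffold. ESCs in serum and LIF fluctuate between a naive state, sustained by LIF and STAT3, and states closer to the epiblast of the implanting embryo, which FGF and Nodal signals promote.

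Pramel7 had the largest change. It had 0.258 and 0.217 CPM in the parental libraries, from 5 and 4 reads, and 398 and 431 CPM in ΔN. The full-length line had 51.2 and 46.2 CPM, less than ΔN by limma (log2 difference 3.06, adjusted p = 6.12e-07), so differences between the derived lines go together with a difference in Pramel7 RNA. Of the other Pramel paralogues, 3 were tested and none was called. Pramef12, the most abundant of them, had 50.6 and 45.4 CPM in parental ESCs and 63.7 and 61.7 CPM in ΔN.

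The libraries carried the markers of ESCs. Pou5f1, Sox2, Nanog, Esrrb, Zfp42 and Dppa5a summed to 4110.1 and 4432 CPM in parental ESCs and to 4894 and 4868 CPM in ΔN, and none of the 6 was called. Markers of other cells were mostly low. The 6 primitive endoderm markers summed to 6.95 to 9.99 CPM over the 4 libraries. Gata4 among them was called higher, at 1.39 and 0.759 CPM in parental ESCs and 2.66 and 2.38 CPM in ΔN, and Pdgfra lower, at 1.03 and 1.19 CPM in parental ESCs and 0.251 and 0.422 CPM in ΔN, and both calls were lost without ΔN replicate 1, ΔN replicate 2 or parental replicate 2. Over the 4 libraries, the 4 mesendoderm markers summed to 0.686 to 1.29 CPM, the 6 fibroblast markers to 39.0 to 56.0 CPM with Dcn at 0, and the 5 neural markers, mostly Tubb3, to 176 to 212 CPM. The 6 trophectoderm markers summed to 8.57 and 9.22 CPM in parental ESCs and 13.6 and 15.2 CPM in ΔN, with Elf5 at 0 in ΔN. Eomes and Hand1 among them were called higher, and the calls were lost without ΔN replicate 2 for Eomes and without ΔN replicate 1 or ΔN replicate 2 for Hand1. Of 4 two-cell-like markers, Zscan4d, Zfp352 and Tcstv1 were at 0 in all 4 libraries. In bulk RNA, fewer cells of a type and less RNA per cell cannot be told apart.

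Libraries of a line were first compared with each other. The parental libraries differed most, with 788 of the genes tested apart by more than 0.58 on the log2 scale, against 255 in ΔN and 130 in the full-length line. The median absolute difference was 0.19 in parental ESCs and 0.12 in ΔN. The 11 mitochondrially encoded genes stood apart, with a median difference of 0.92 between the parental libraries and -0.54 between the ΔN libraries (replicate 1 minus replicate 2). mt-Nd1, a subunit of complex I, had 5512 and 2129 CPM in parental ESCs and 2488 and 4193 CPM in ΔN, so the lines overlapped, and no mitochondrial gene was called. Without parental replicate 1, 6 of the 11 were called as higher in ΔN, and without parental replicate 2, 5 were called as lower.

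**Figure D1:**
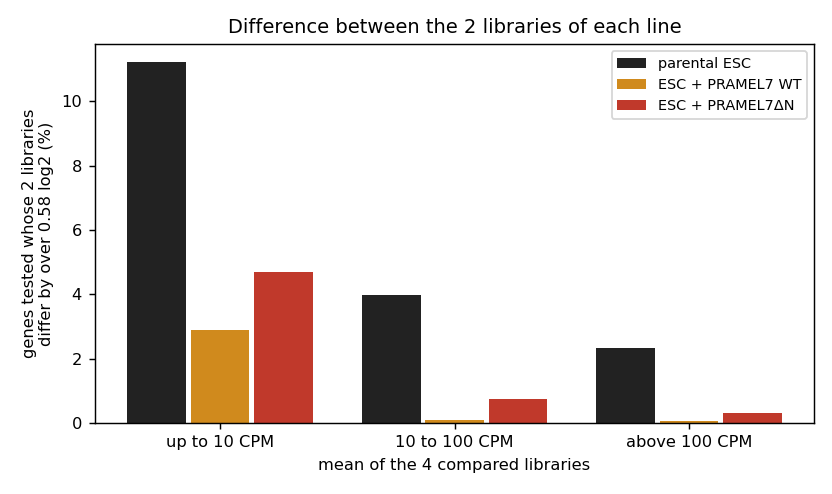
Percentage of genes tested whose 2 libraries differ by more than 0.58 on the log2 scale (y axis), by line (bar colour) and by mean level over the 4 compared libraries (x axis, CPM). Parental ESCs have the highest bar in each class, 11.2% up to 10 CPM and 2.34% above 100 CPM, against 4.69% and 0.309% in ΔN.

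Expression was lower in ΔN for many more genes than it was higher. A gene was called with an adjusted p under 0.05 and a log2 fold change beyond 0.58. On this basis 370 genes were upregulated and 1086 downregulated, 2.87% and 8.41% of the genes tested. Beyond 2-fold, 59 were higher and 364 lower, and beyond 4-fold Pramel7 alone was higher and 51 were lower. For each called gene both ΔN libraries lay on one side of both parental libraries, which over all genes tested was so for 21.6% above and 35.4% below. The median log2 fold change over all genes tested was -0.06.

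Decreases were concentrated among genes of low expression. Of the 2133 genes up to 3 CPM, 369 were downregulated (17.3%), and of the 2268 above 100 CPM, 48 (2.12%). The filter asked for 1 CPM in 2 of 6 libraries, so genes near this floor can pass through the line where they are high. This can raise the share called in the lowest class. Increases made up 2.38% to 3.67% of all 5 level classes. The median level was 5.81 CPM for downregulated, 17.0 CPM for upregulated and 23.6 CPM for all genes tested. Of 179 lincRNAs, 9 rose and 27 fell.

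Increases were 25.4% of the calls. This share was 37.8% after median-ratio scaling (534 up and 880 down) and 45.6% after quantile normalization (604 up and 720 down). The counts were 181 up and 584 down without ΔN replicate 1, 270 up and 616 down without ΔN replicate 2 and 595 up and 1518 down without parental replicate 1.

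**Figure D2:**
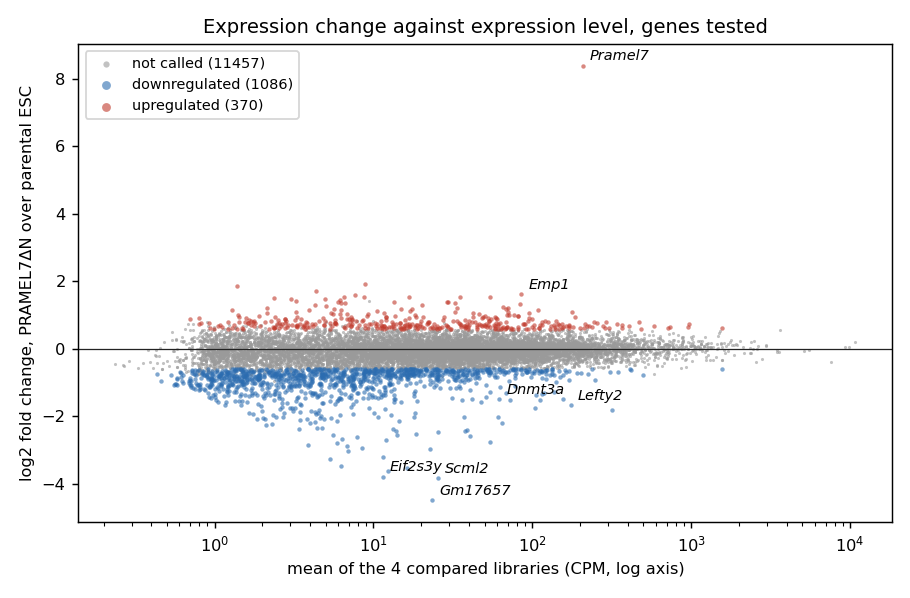
Each point is a gene tested, with the mean of the 4 compared libraries on the x axis (CPM, log axis) and the log2 fold change of PRAMEL7ΔN over parental ESC on the y axis. Red points are the 370 upregulated and blue points the 1086 downregulated genes, with the blue points most frequent at low levels.

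After Pramel7, the 12 largest increases lay between 1.21 and 1.62 on the log2 scale. They were chosen among called genes with a mean of at least 10 CPM and ΔN libraries clear of the parental ones. Several encode transcription factors. Creb5, of the CREB and ATF family, had 7.53 and 8.79 CPM in parental ESCs and 25.8 and 25.2 CPM in ΔN. Fosl2, a FOS-family subunit of AP-1, had 10.9 and 11.6 CPM in parental ESCs and 30.2 and 27.8 CPM in ΔN. Zfp423, a zinc finger factor that binds SMAD complexes, had 20.2 and 15.3 CPM in parental ESCs, 56.5 and 49.1 CPM in ΔN and 39.4 and 42.8 CPM in the full-length line. The log2 fold changes of these 3 genes were 1.54, 1.30 and 1.53. Creb5 and Fosl2 also differed from the full-length line (adjusted p = 0.000262 and 0.00134), whereas for Zfp423 this was not shown (adjusted p = 0.111).

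Others act at the cell surface or outside the cell. Emp1, an epithelial membrane protein, had 46.6 and 36.4 CPM in parental ESCs, 119 and 139.6 CPM in ΔN and 22.6 and 21.0 CPM in the full-length line. Its log2 fold change over parental ESCs was 1.62 (SE 0.13, adjusted p = 0.000101). Abca1, which exports cholesterol, had 20.3 and 15.7 CPM in parental ESCs, 48.9 and 45.3 CPM in ΔN and 8.91 and 8.20 CPM in the full-length line. Both were above the parental libraries in ΔN and below them in the full-length line. Gprc5a, an orphan G protein-coupled receptor, had 26.3 and 28.7 CPM in parental ESCs, 85.8 and 76.6 CPM in ΔN and 27.5 and 28.3 CPM in the full-length line. Mmp14, a membrane-anchored matrix metalloproteinase, had 17.5 and 14.2 CPM in parental ESCs, 43.5 and 43.0 CPM in ΔN and 20.9 and 21.6 CPM in the full-length line. Gprc5a and Mmp14 differed between the derived lines (adjusted p = 3.33e-05 and 0.000857). Inhbb, the beta B subunit of inhibin and activin, had 47.6 and 45.9 CPM in parental ESCs, 123 and 117 CPM in ΔN and 103 and 106 CPM in the full-length line, and a difference between the derived lines was not shown (adjusted p = 0.144).

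Arhgef5, a guanine nucleotide exchange factor, had 7.33 and 6.62 CPM in parental ESCs, 20.6 and 19.6 CPM in ΔN and 7.19 and 6.72 CPM in the full-length line. Perp, a desmosomal target of p53, had 18.8 and 12.7 CPM in parental ESCs, 39.1 and 45.5 CPM in ΔN and 27.5 and 25.8 CPM in the full-length line. Both were clear of the parental libraries, as the choice of these genes required. Kbtbd11 and Calml4 rose by 1.24 and 1.21 on the log2 scale and were not shown to differ between the derived lines (adjusted p = 0.121 and 0.163). Emp1, Creb5, Gprc5a and Arhgef5 lie on chromosome 6, most of which was higher in ΔN.

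The 12 largest decreases by the same rule lay between -2.52 and -4.49 on the log2 scale. The first was Gm17657, a predicted gene, with 47.1 and 42.9 CPM in parental ESCs and 0 and 3.21 CPM in ΔN, so the ΔN libraries also differed from each other. Scml2, a Polycomb-associated protein of the male germline, had 45.2 and 51.2 CPM in parental ESCs, 2.76 and 2.16 CPM in ΔN and 7.14 and 7.05 CPM in the full-length line, 19.6-fold lower in ΔN than in parental ESCs. Pnma5, of the paraneoplastic antigen family, had 27.2 and 34.7 CPM in parental ESCs, 1.86 and 1.64 CPM in ΔN and 12.9 and 13.9 CPM in the full-length line. Usp26, a ubiquitin-specific protease of the testis, had 30.3 and 34.5 CPM in parental ESCs, 4.72 and 4.96 CPM in ΔN and 3.999 and 2.92 CPM in the full-length line. All 3 are X-linked and low in both derived lines. Scml2 and Pnma5 were lower in ΔN than in the full-length line (adjusted p = 0.000684 and 2.07e-05), and for Usp26 no difference was shown (adjusted p = 0.113).

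Another group acts at the matrix or the membrane. Ddr2, a receptor tyrosine kinase for fibrillar collagen, had 72.4 and 68.5 CPM in parental ESCs, 11.5 and 10.4 CPM in ΔN and 61.3 and 57.2 CPM in the full-length line. Smoc1, a secreted calcium-binding matrix protein, had 39.2 and 42.5 CPM in parental ESCs, 4.27 and 4.38 CPM in ΔN and 22.8 and 23.0 CPM in the full-length line. Col26a1, a collagen, had 18.0 and 24.8 CPM in parental ESCs, 1.61 and 1.21 CPM in ΔN and 15.99 and 16.1 CPM in the full-length line. Ddr2 and Col26a1 were thus close to the parental libraries in the full-length line, and all 3 differed between the derived lines (adjusted p = 1.57e-06, 6.58e-06 and 1.71e-05). Slc4a5, a sodium bicarbonate cotransporter, had 23.8 and 23.6 CPM in parental ESCs, 0.753 and 1.32 CPM in ΔN and 10.3 and 9.85 CPM in the full-length line. It lies on chromosome 6 between 80 and 100 Mb, a stretch whose median was lower than in parental ESCs in both derived lines.

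Aim2, a sensor of cytosolic DNA, had 25.1 and 24.1 CPM in parental ESCs, 3.26 and 3.54 CPM in ΔN and 11.1 and 14.1 CPM in the full-length line. Arl14epl had 98.3 and 92.3 CPM in parental ESCs, 11.5 and 15.0 CPM in ΔN and 88.4 and 79.9 CPM in the full-length line. Rpl39l, a ribosomal protein paralogue enriched in the testis, had 23.3 and 19.7 CPM in parental ESCs, 2.21 and 2.75 CPM in ΔN and 50.7 and 53.6 CPM in the full-length line. For Rpl39l the derived lines lay on opposite sides of the parental libraries, and its close copies in the genome may share its reads. Eif2s3y, a translation initiation factor subunit encoded on the Y chromosome, had the same pattern, with 25.8 and 18.4 CPM in parental ESCs, 0.452 and 0.897 CPM in ΔN and 43.9 and 45.7 CPM in the full-length line.

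**Figure D3:**
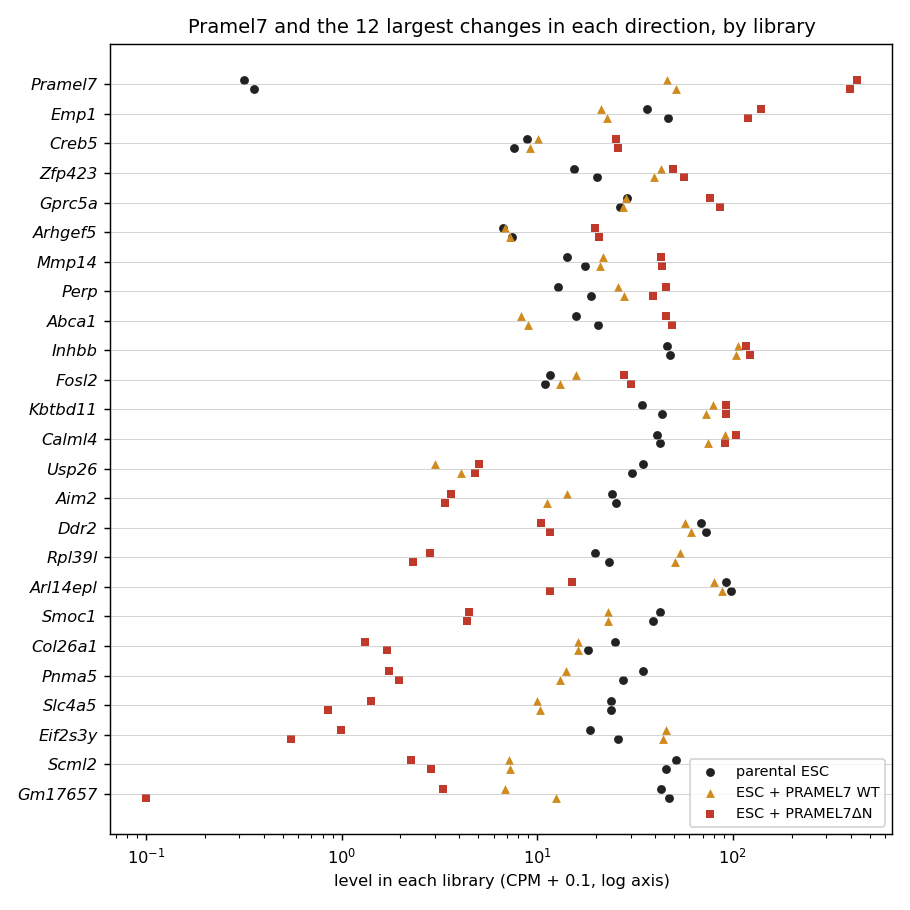
Level of Pramel7 and of the 12 genes with the largest changes in each direction in 6 libraries (x axis, CPM + 0.1, log axis), each point a library. Black circles are parental ESC, orange triangles ESC + H/F-PRAMEL7WT and red squares ESC + H/F-PRAMEL7ΔN. For all 25 genes the red squares do not overlap the black circles, which the choice of all but Pramel7 required.

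Promoters of called genes were described with the RefSeq sequences of build GRCm38.p6, 300 bases around each start, which matched 9848 of the genes tested by symbol. The first 2 increases and the first 2 decreases with a single promoter in that table are shown as examples of the range of CpG content. Capitals mark CpG dinucleotides, the sites of DNA methylation. Arhgef5 (chr6:43265394-43265693, plus strand) has 28 CpGs, Mmp14 (chr14:54431348-54431647, plus strand) has 10, Scml2 (chrX:161162500-161162799, plus strand) has 13 and Eif2s3y (chrY:1010345-1010644, plus strand) has 14. The Scml2 promoter lies inside the gene span used for its level (chrX:161117193-161258213), so it is not at the annotated start of that span.
Arhgef5: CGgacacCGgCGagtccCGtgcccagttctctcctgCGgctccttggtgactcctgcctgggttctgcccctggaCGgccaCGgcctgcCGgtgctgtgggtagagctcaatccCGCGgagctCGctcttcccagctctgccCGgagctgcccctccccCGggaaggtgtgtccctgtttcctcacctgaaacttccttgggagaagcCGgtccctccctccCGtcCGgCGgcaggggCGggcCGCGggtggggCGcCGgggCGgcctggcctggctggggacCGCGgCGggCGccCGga
Mmp14: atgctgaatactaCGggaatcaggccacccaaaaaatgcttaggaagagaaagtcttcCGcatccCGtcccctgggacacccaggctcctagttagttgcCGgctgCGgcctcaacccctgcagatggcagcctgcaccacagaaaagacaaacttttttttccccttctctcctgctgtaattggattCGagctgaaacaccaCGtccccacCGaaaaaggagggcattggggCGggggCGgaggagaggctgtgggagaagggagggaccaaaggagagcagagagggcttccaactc
Scml2: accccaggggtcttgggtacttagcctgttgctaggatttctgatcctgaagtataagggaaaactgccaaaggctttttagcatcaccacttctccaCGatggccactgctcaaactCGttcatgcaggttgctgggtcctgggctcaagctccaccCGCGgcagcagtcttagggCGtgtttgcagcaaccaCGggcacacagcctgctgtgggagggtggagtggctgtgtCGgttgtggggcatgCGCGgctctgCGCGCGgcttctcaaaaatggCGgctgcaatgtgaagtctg
Eif2s3y: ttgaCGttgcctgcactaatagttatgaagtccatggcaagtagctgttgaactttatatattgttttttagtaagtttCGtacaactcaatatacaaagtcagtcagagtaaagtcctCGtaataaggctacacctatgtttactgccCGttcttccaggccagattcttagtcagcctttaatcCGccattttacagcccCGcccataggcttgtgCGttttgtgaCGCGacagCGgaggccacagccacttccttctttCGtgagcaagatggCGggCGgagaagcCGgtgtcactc

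Promoters of downregulated genes held fewer CpGs than those of the other genes tested. The median was 13 per promoter (1111 promoters) against 21 for genes not called and 18 for upregulated genes (337 promoters). Up to 10 CPM the medians were 9 for downregulated and 16 for other genes, and above 10 CPM they were 18 and 22. The ETS element CCGGAAG, searched on both strands, was in 8.91% of the promoters of downregulated genes and 8.01% of those of upregulated genes, against 18.4% for the other genes tested and 8.86% of all promoters in the table. The GC box GGGCGG was in 51.3%, 63.2%, 63.9% and 35.7% in this order, and the AP-1 element TGANTCA in 7.47%, 7.72%, 4.45% and 7.81%. Split by level, the ETS element was in 6.29% for downregulated and 11.8% for other genes up to 10 CPM. Above 10 CPM it was in 12.9% and 20.9%. Of the sequences above, Arhgef5, Mmp14 and Eif2s3y hold 2 GC boxes each, and none of the 4 holds the ETS or the AP-1 element. These are matches of letters, and methylation was not measured.

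The genes tested were then grouped into 61 functional lists and gene families. The counts of each are to be read against 2.87% upregulated and 8.41% downregulated of all genes tested, and its median log2 fold change against -0.06. The share downregulated differed by level, from 17.3% up to 3 CPM and 14.3% from 3 to 10 CPM to 2.12% above 100 CPM. In the lowest class, genes can pass the filter through the line where they are high, as described above. Lists were not matched for level, so the shares over all genes suit lists of low or abundant genes less well.

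The naive pluripotency network was largely at the parental level, with 1 of 26 genes upregulated, 3 downregulated and a median of 0.02. Dppa3, a maternal factor also active in primordial germ cells, had 9.50 and 14.0 CPM in parental ESCs, 1.00 and 0.95 CPM in ΔN and 1.92 and 1.87 CPM in the full-length line, and a difference between the derived lines was not shown (adjusted p = 0.0761). Klf2, a Krüppel-like factor, had 148 and 182 CPM in parental ESCs, 68.0 and 61.0 CPM in ΔN and 156 and 182 CPM in the full-length line, so that the full-length line lay near the parental libraries and ΔN below both (adjusted p = 0.000137 between the derived lines). Fbxo15, an F-box protein, fell by 0.77 on the log2 scale. Gbx2, a homeobox target of STAT3, had 12.3 and 8.62 CPM in parental ESCs and 23.3 and 25.98 CPM in ΔN. It was the single call among 17 genes of LIF and STAT3 signalling, in which Tfcp2l1, a STAT3 target, had 1142 and 1108 CPM in parental ESCs and 1107 and 1139 CPM in ΔN.

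Of 20 genes of the formative and primed epiblast, 8 were downregulated, none was upregulated and 12 were not called. Without regard to the test, 9 had a log2 fold change above 0 and 11 below it, with a median of -0.28. The number downregulated was 7 to 8 when any library was left out. Zic2, a zinc finger factor of epiblast enhancers, had 10.5 and 10.2 CPM in parental ESCs, 1.76 and 2.11 CPM in ΔN and 5.11 and 5.01 CPM in the full-length line, and its relative Zic5 fell by 1.54 on the log2 scale. Lefty2, a secreted inhibitor of Nodal, had 264 and 266 CPM in parental ESCs, 82.0 and 84.4 CPM in ΔN and 287 and 301 CPM in the full-length line. Dnmt3a, a de novo DNA methyltransferase, had 95.9 and 86.8 CPM in parental ESCs, 32.2 and 31.8 CPM in ΔN and 88.4 and 85.5 CPM in the full-length line. Lefty2 and Dnmt3a were near the parental libraries in the full-length line and differed between the derived lines (adjusted p = 1.34e-06 and 2.31e-05).

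Lineage genes moved in both directions. Of 13 trophectoderm genes, 6 were upregulated and 4 downregulated, or 3 up and 2 down of 7 outside chromosomes 6, 11, X and Y. The number upregulated was 3 without ΔN replicate 2. Tead4, a TEA-domain factor of this lineage on chromosome 6, had 50.8 and 58.2 CPM in parental ESCs and 114 and 104 CPM in ΔN, and Tfap2c, an AP-2 factor, had 59.8 and 94.2 CPM in parental ESCs and 30.4 and 30.9 CPM in ΔN. Of 14 primitive endoderm genes, 3 rose and 3 fell. Hnf4a had the largest decrease, by 1.04 on the log2 scale, with 18 and 24 reads in parental ESCs and 0 and 1 in ΔN. The type IV collagens Col4a1 and Col4a2 of the basement membrane rose by 0.91 and 0.93 on the log2 scale, the call of Col4a2 being lost without ΔN replicate 1, and Col4a1 had 31.4 and 41.5 CPM in parental ESCs and 71.6 and 65.7 CPM in ΔN. The number of endoderm genes upregulated was 1 without ΔN replicate 1, and the number downregulated 1 without ΔN replicate 1. Of 6 fibroblast and mesenchyme genes, 2 fell and none rose, with a median of -0.61. For these genes the median difference between the parental libraries was -0.42 (replicate 1 minus replicate 2). The median of the full-length line over parental ESCs was -0.71. Of 11 neural genes, 3 fell. Vim, an intermediate filament protein, had 111 and 103 CPM in parental ESCs, 36.8 and 37.5 CPM in ΔN and 144 and 152 CPM in the full-length line, and Stmn2, a regulator of microtubules, fell by 0.67.

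Signalling pathways had members on both sides. In Nodal and TGF-beta signalling, 4 of 21 genes were upregulated and 4 downregulated. Besides Inhbb, the inhibitory SMAD gene Smad7 rose, with 67.5 and 72.3 CPM in parental ESCs and 137 and 123 CPM in ΔN. Lefty2 was among those that fell. The number upregulated was 2 without ΔN replicate 1 and 2 without ΔN replicate 2. In BMP signalling, 2 of 20 rose and 5 fell, a number that was 1 without ΔN replicate 1 and 3 without ΔN replicate 2. Id3, a target of the pathway, had 29.9 and 27.3 CPM in parental ESCs and 12.8 and 13.0 CPM in ΔN. In FGF and ERK signalling, 4 of 20 rose, a number that was 2 without ΔN replicate 1. Among them Myc had 46.2 and 40.5 CPM in parental ESCs and 76.3 and 73.1 CPM in ΔN and the phosphatase gene Dusp6 had 38.5 and 36.9 CPM in parental ESCs and 60.3 and 63.7 CPM in ΔN. The 2 that fell were the receptor gene Fgfr2 (-0.96) and Dusp4 (-0.94), and both calls were lost without ΔN replicate 1 and without ΔN replicate 2.

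In Wnt signalling, 3 of 30 genes rose and 7 fell, with a median of -0.18, and outside chromosomes 6, 11, X and Y the counts were 2 up and 3 down of 23. The number that rose was 1 without ΔN replicate 1. Axin2, a feedback inhibitor of the pathway, had 10.7 and 10.95 CPM in parental ESCs, 4.01 and 3.17 CPM in ΔN and 5.72 and 5.84 CPM in the full-length line, and the receptor gene Fzd2 had 3.66 and 3.69 CPM in parental ESCs, 0.753 and 0.845 CPM in ΔN and 3.39 and 3.74 CPM in the full-length line. Both lie on chromosome 11. Among 14 Notch genes, 3 fell and the median was -0.38, with a median difference of -0.30 between the parental libraries (replicate 1 minus replicate 2). The ligand gene Jag1 had 16.6 and 18.8 CPM in parental ESCs, 3.16 and 4.12 CPM in ΔN and 8.55 and 9.25 CPM in the full-length line. The number of Notch genes downregulated was 1 without ΔN replicate 1 and 6 without parental replicate 1.

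Of 20 genes of the interferon response, 9 were downregulated, none was upregulated and 11 were not called. The log2 fold change was above 0 for 7 and below 0 for 13, with a median of -0.56. The number downregulated was 6 without ΔN replicate 1, 7 without ΔN replicate 2, 10 without parental replicate 1 and 9 without parental replicate 2. Ddx58, the RNA sensor RIG-I, had 62.2 and 45.3 CPM in parental ESCs, 18.3 and 17.7 CPM in ΔN and 31.5 and 27.97 CPM in the full-length line. Gbp2, a guanylate-binding protein, had 2.58 and 1.30 CPM in parental ESCs and 0.100 and 0.0528 CPM in ΔN, levels of few reads in ΔN. Ifitm1 and Ifitm3 encode membrane proteins that restrict viral entry. Ifitm1 had 179.8 and 211 CPM in parental ESCs, 80.9 and 78.7 CPM in ΔN and 225 and 244 CPM in the full-length line, and Ifitm3 had 48.6 and 48.4 CPM in parental ESCs, 22.05 and 20.8 CPM in ΔN and 51.2 and 51.5 CPM in the full-length line. Both differed between the derived lines (adjusted p = 1.92e-05 and 6.81e-05).

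Enzymes that conjugate glutathione were among the decreases. In the list for NRF2 and glutathione, 6 of 31 genes fell and 1 rose, and the largest decreases were the glutathione S-transferase genes Gstm2, Gstm5, Gstt1 and Gstm1. Gstm2 had 22.8 and 22.9 CPM in parental ESCs, 7.28 and 6.81 CPM in ΔN and 18.1 and 18.3 CPM in the full-length line, and Gstm1 had 92.2 and 96.8 CPM in parental ESCs, 52.1 and 45.0 CPM in ΔN and 67.0 and 69.3 CPM in the full-length line. Gstm5 had 16.5 and 17.5 CPM in parental ESCs, 7.03 and 6.55 CPM in ΔN and 8.00 and 7.38 CPM in the full-length line, and a difference between the derived lines was not shown (adjusted p = 0.438). The Gstm genes are similar in sequence and may share reads. Of 21 genes of drug and aldehyde metabolism, 1 rose and 2 fell. Ephx2, an epoxide hydrolase of fatty acids, had 61.4 and 58.4 CPM in parental ESCs, 13.0 and 15.2 CPM in ΔN and 104 and 94.8 CPM in the full-length line, on opposite sides of the parental libraries in the derived lines. Aldh1a3, which makes retinoic acid, had 0.619 and 1.74 CPM in parental ESCs and 4.87 and 4.91 CPM in ΔN.

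Of 24 targets of p53, 5 were upregulated and none downregulated, with a median of 0.14, and 4 to 5 were upregulated when any library was left out. Btg2, an antiproliferative factor, had 66.1 and 64.6 CPM in parental ESCs, 126 and 125 CPM in ΔN and 64.4 and 64.8 CPM in the full-length line. Gadd45a, of the DNA damage response, had 18.3 and 19.9 CPM in parental ESCs, 34.8 and 36.1 CPM in ΔN and 23.5 and 23.7 CPM in the full-length line. Gadd45a and Tigar (0.71), a regulator of glycolysis, lie on chromosome 6. By the limma test no gene was called among 25 of ATF4 and amino acid supply, 18 of the unfolded protein response, 31 of lysosomes and 13 of metals. At an unadjusted p under 0.05 with the same limit on size, Ddit4 of the ATF4 list passed, as lower, and voom on whole reads called Atf3 of that list, as higher. With a library left out, the ATF4, lysosome and metal lists gave 2 calls at most and the unfolded protein response gave none. The most abundant genes of that response, both chaperones of the endoplasmic reticulum, went opposite ways below the limit for a call. Calr had 662 and 581 CPM in parental ESCs and 839.8 and 833 CPM in ΔN (log2 fold change 0.43), and Canx had 733 and 698 CPM in parental ESCs and 480.2 and 531 CPM in ΔN (log2 fold change -0.50). Canx lies on chromosome 11, most of which was lower in ΔN, and had 456 and 447 CPM in the full-length line. Of 16 heat shock genes, Bag3, a co-chaperone, was called, with 49.0 and 50.1 CPM in parental ESCs, 23.3 and 25.8 CPM in ΔN and 50.6 and 51.0 CPM in the full-length line.

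**Figure D4:**
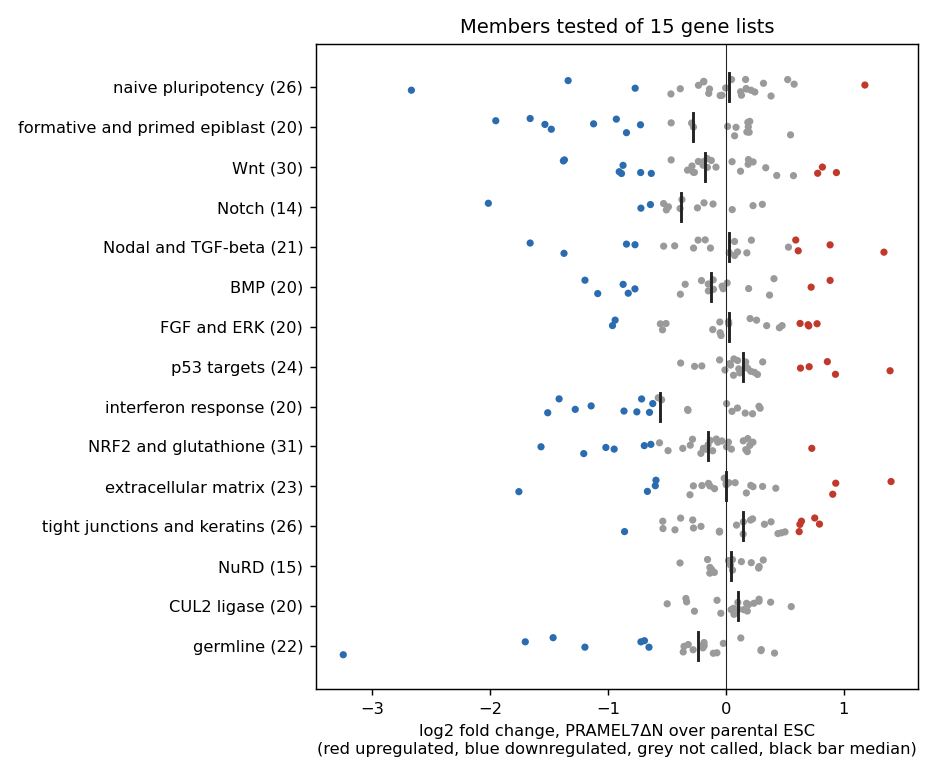
Log2 fold change of PRAMEL7ΔN over parental ESC (x axis) of the genes tested in 15 lists (rows, number tested in brackets), each point a gene, red if upregulated, blue if downregulated and grey if not called, with the list's median as a black bar. The median of the interferon list lies at -0.56 and that of the formative and primed epiblast list at -0.28, and no point of the NuRD and CUL2 ligase lists is coloured.

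None of 15 genes of the NuRD remodelling and deacetylase complex was called, and 2 were called as lower without parental replicate 1. Chd4, its ATPase, had 1099 and 1167 CPM in parental ESCs and 1174 and 1126 CPM in ΔN, and Rbbp4, a histone-binding subunit, had 527 and 434 CPM in parental ESCs and 542 and 569.8 CPM in ΔN. None of 20 genes of the CUL2 ligase was called. Like those of NuRD, the ESC markers, the other Pramel paralogues and the mitochondrially encoded genes, they gave 0 calls also at an unadjusted p under 0.05 with the same limit and by voom. With a library left out, 1 gene of the CUL2 ligase was called as higher without parental replicate 1 and 1 Pramel paralogue as lower without parental replicate 2. Cul2, the scaffold, had 115 and 83.8 CPM in parental ESCs and 93.6 and 109.8 CPM in ΔN. Of 18 genes of DNA methylation, 2 were called, Dnmt3a and the oxidising enzyme gene Tet3. Tet3 had 9.13 and 12.3 CPM in parental ESCs and 4.57 and 4.22 CPM in ΔN. It lies on chromosome 6 between 80 and 100 Mb, where 57 of 123 genes were downregulated and none was upregulated. Outside chromosomes 6, 11, X and Y, 1 of 15 genes of this list was downregulated. Uhrf1 and Dnmt1 maintain methylation at replication. Uhrf1 had 531 and 573 CPM in parental ESCs and 721 and 709 CPM in ΔN (log2 fold change 0.37, adjusted p = 0.0118), below the limit for a call, and Dnmt1 had 448 and 536 CPM in parental ESCs and 488 and 459.9 CPM in ΔN (log2 fold change -0.05). Of 31 Polycomb genes, Scml2 and Bcorl1 were called, both X-linked, and the call of Bcorl1 (-0.75) was lost without ΔN replicate 1, ΔN replicate 2 or parental replicate 2.

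Of 22 germline genes, 7 were downregulated and none upregulated, with 5 to 8 downregulated when any library was left out. The log2 fold change was below 0 for 18 of them and above 0 for 4. Outside chromosomes 6, 11, X and Y the counts were 0 up and 4 down of 16. Xlr3a, an X-linked multicopy gene whose copies may share reads, had 9.18 and 11.7 CPM in parental ESCs, 0.0502 and 0.37 CPM in ΔN and 2.68 and 1.54 CPM in the full-length line. Brdt, a testis bromodomain protein, had 2.99 and 4.07 CPM in parental ESCs, 0.251 and 0.528 CPM in ΔN and 0.506 and 0.44 CPM in the full-length line, and a difference between the derived lines was not shown (adjusted p = 0.771). Syce1, of the synaptonemal complex, fell by 1.20 on the log2 scale. The Rhox cluster of X-linked homeobox genes, active in reproductive tissues, had 6 genes tested and 6 downregulated, with a median of -1.50. Rhox5 had 38.5 and 49.5 CPM in parental ESCs, 8.78 and 5.75 CPM in ΔN and 129.6 and 144 CPM in the full-length line, and Rhox13 had 13.2 and 16.7 CPM in parental ESCs, 3.36 and 4.17 CPM in ΔN and 9.62 and 9.97 CPM in the full-length line. Rhox5 lay on opposite sides of the parental libraries in the derived lines. Of 8 X-linked MAGE genes, Magea4 and Mageb16 fell, and the call of Mageb16 was lost without ΔN replicate 1 or ΔN replicate 2.

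Imprinted genes were mixed, with 2 of 31 upregulated and 3 downregulated, and the number upregulated was 1 without ΔN replicate 1, 1 without ΔN replicate 2, 4 without parental replicate 1 and 0 without parental replicate 2. Plagl1, a zinc finger regulator, had 19 and 23 reads in the parental libraries, 78 and 56 in the full-length line and 0 in both ΔN libraries, at least 14.3-fold lower against a floor of 3 reads over both ΔN libraries. H19, a non-coding RNA below the filter, had 26 and 13 reads in the parental libraries, 1 and 3 in the full-length line and 0 in both ΔN libraries, at least 13.3-fold lower. Peg10 on chromosome 6 had 313 and 248 CPM in parental ESCs, 453 and 462 CPM in ΔN and 148 and 148 CPM in the full-length line, and its call was lost without parental replicate 2. Igf2r, the receptor that clears IGF2, fell by 0.76 on the log2 scale, a call lost without parental replicate 2. Over all matched genes, 538 had reads in both parental libraries and none in ΔN, and 303 the reverse. Adcy4, an adenylate cyclase, had the most reads among the latter, 6 and 9 in ΔN, at least 4.89-fold higher.

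Matrix genes changed unevenly. In the collagen family, 2 of 18 genes rose, Col4a1 and Col4a2, and 9 fell, with a median of -0.66. The median difference between the parental libraries was -0.44 for this family (replicate 1 minus replicate 2). After Col26a1 the largest decreases were Col2a1 (-1.47), Col6a5 (-1.40) and Col9a2 (-1.19), of which Col2a1 lost its call without ΔN replicate 2 and Col9a2 without ΔN replicate 1 or ΔN replicate 2. The number downregulated was 3 without ΔN replicate 1 and 3 without ΔN replicate 2. In the wider matrix list 3 of 23 rose and 4 fell, the latter 2 without ΔN replicate 1, 2 without ΔN replicate 2 and 2 without parental replicate 2. Spp1, the secreted phosphoprotein osteopontin, had 163 and 158 CPM in parental ESCs, 42.8 and 51.2 CPM in ΔN and 179 and 188 CPM in the full-length line. Itga3 and Itga5, integrin subunits for laminin and fibronectin, rose by 0.68 and 0.65 on the log2 scale, the latter call being lost without ΔN replicate 1, and neither was shown to differ between the derived lines (adjusted p = 0.315 and 0.243).

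Of 26 genes of tight junctions and keratins, 5 rose and 1 fell, and the number that rose was 1 without ΔN replicate 1, 2 without ΔN replicate 2, 1 without parental replicate 1 and 8 without parental replicate 2. Krt8, a keratin of simple epithelia, had 14.1 and 17.8 CPM in parental ESCs and 27.5 and 29.0 CPM in ΔN. Of 23 targets of YAP and SRF, 1 rose and 5 fell, the latter 3 without ΔN replicate 1. Lima1, an actin-binding LIM protein, led the decreases, with 196 and 261 CPM in parental ESCs, 80.8 and 81.7 CPM in ΔN and 148 and 142 CPM in the full-length line. Rapgef3, a cAMP-activated exchange factor for RAP1, had 2.79 and 3.36 CPM in parental ESCs and 9.99 and 8.82 CPM in ΔN and was the larger of 2 increases among 27 genes of RAP1 and small GTPases. In that list 1 gene fell, Rhob (-0.78), a call lost without ΔN replicate 2, and the number that fell was 7 without parental replicate 1. Of 32 guidance genes, 2 rose and 6 fell, the latter 2 without ΔN replicate 2, 11 without parental replicate 1 and 3 without parental replicate 2, and the secreted cues Slit2 and Slit3 fell by 1.49 and 1.44.

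Among metabolic genes few were called. Of 72 nuclear genes of oxidative phosphorylation, Ndufb2 and Ndufa4 rose, both on chromosome 6, and outside chromosomes 6, 11, X and Y the counts were 0 up and 0 down of 60. Of 25 cholesterol synthesis genes, 3 fell, with Dhcr7 (-0.66) and Insig1 (-0.64) among them, and all 3 calls were lost without parental replicate 2. In the solute carrier family, 5 of 224 rose and 24 fell, the latter 9 without ΔN replicate 1 and 7 without ΔN replicate 2. The number that rose was 10 without parental replicate 1 and 8 without parental replicate 2. Slc13a4, an anion transporter on chromosome 6, fell by 1.54 on the log2 scale. Serpinf1, a secreted serpin, had 29.8 and 28.7 CPM in parental ESCs, 6.47 and 6.49 CPM in ΔN and 39.2 and 41.7 CPM in the full-length line. Dnah8, an axonemal dynein, had 79.9 and 116 CPM in parental ESCs, 24.6 and 21.6 CPM in ΔN and 16.2 and 18.2 CPM in the full-length line and was not shown to differ between the derived lines (adjusted p = 0.116).

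Of 86 ribosomal protein genes, Rpl39l and Rpl10l were called. Rpl10l had 31.6 and 40.0 CPM in parental ESCs, 21.2 and 23.2 CPM in ΔN and 76.4 and 82.1 CPM in the full-length line, and its call was lost without ΔN replicate 1 or parental replicate 2 and after median-ratio scaling. Of 35 cell cycle genes, 3 rose, Cdkn1b (0.69), an inhibitor of cyclin-dependent kinases, Ccnd3 (0.69), cyclin D3, and E2f2 (0.67), a regulator of S phase. Each of these calls was lost without parental replicate 1, while other genes of the list gained one. Cdkn1b lies on chromosome 6, and outside chromosomes 6, 11, X and Y 2 of 30 genes rose. While Myc rose, its relatives Mycl and Mycn fell, by 1.05 and 0.75 on the log2 scale, and the call of Mycn was lost without parental replicate 2. Among 347 zinc finger genes, 2 rose and 14 fell. Without parental replicate 1 these were 27 and 24, and without ΔN replicate 1 they were 1 and 7. Zfp951 led the decreases, with 19.3 and 12.1 CPM in parental ESCs, 0.903 and 1.43 CPM in ΔN and 17.6 and 18.7 CPM in the full-length line, and genes of such clusters may share reads.

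Called genes were unevenly spread over the chromosomes. Chromosomes 6, 11, X and Y carried 16.7% of the genes tested, 24.3% of the increases and 32.6% of the decreases. On the other 17 numbered chromosomes the median log2 fold change lay between -0.07 and -0.02. Without the genes of these 4 chromosomes, an alternative chosen after seeing the data, 280 genes were upregulated and 732 downregulated.

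Chromosome 6, which carries the Rosa26 locus, had a positive median of 0.25. Of its 603 genes tested, 69 were upregulated (11.4%) and 77 downregulated (12.8%), and these lay apart along the chromosome. In windows of 10 Mb, the medians from 80 to 100 Mb were -0.54 and -0.60, and those of all other windows lay between 0.19 and 0.43. Of the 123 genes from 80 to 100 Mb, 57 were downregulated and none was upregulated. On the rest of the chromosome, 391 of 480 genes were above the parental level, 69 were upregulated and 20 downregulated. The full-length line, set against the same parental libraries, had medians of -0.54 from 80 to 100 Mb and -0.19 on the rest. The boundaries were chosen after the values were seen. Setd5 and Thumpd3, beside Rosa26, had log2 fold changes of 0.37 and 0.42, under the limit, and the Rosa26 transcript Gt(ROSA)26Sor had 2.32 and 0.868 CPM in parental ESCs and 0.201 and 0.422 CPM in ΔN (adjusted p = 0.0349).

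Chromosome 11 was lower along its length. Its median was -0.33, 953 of 1102 genes tested were below the parental level, 187 were downregulated (17.0%) and 18 upregulated (1.63%). Windows of 10 Mb had medians between -0.40 and -0.25. The full-length line had a median of -0.36 on this chromosome against the same parental libraries. Between libraries of a line the median difference was -0.04 in parental ESCs and 0.04 in ΔN. On the X chromosome, 85 of 449 genes were downregulated (18.9%) and 3 upregulated, with a median of -0.17. The full-length line had a median of -0.16 on the X chromosome against the same parental libraries.

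All 5 Y-linked genes tested were downregulated, with a median of -2.26. Ddx3y, an RNA helicase, had 7.33 and 7.81 CPM in parental ESCs, 0.251 and 0.158 CPM in ΔN and 15.4 and 17.2 CPM in the full-length line. Uty, a relative of histone demethylases, had 5.98 and 2.44 CPM in parental ESCs, 0 and 0.0528 CPM in ΔN and 7.49 and 8.92 CPM in the full-length line. Kdm5d, a histone demethylase, had 18 and 17 reads in the parental libraries, 43 and 31 in the full-length line and 0 in both ΔN libraries, at least 11.9-fold lower. The parental libraries lay between those of the derived lines for these 3 genes and for Eif2s3y.

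**Figure D5:**
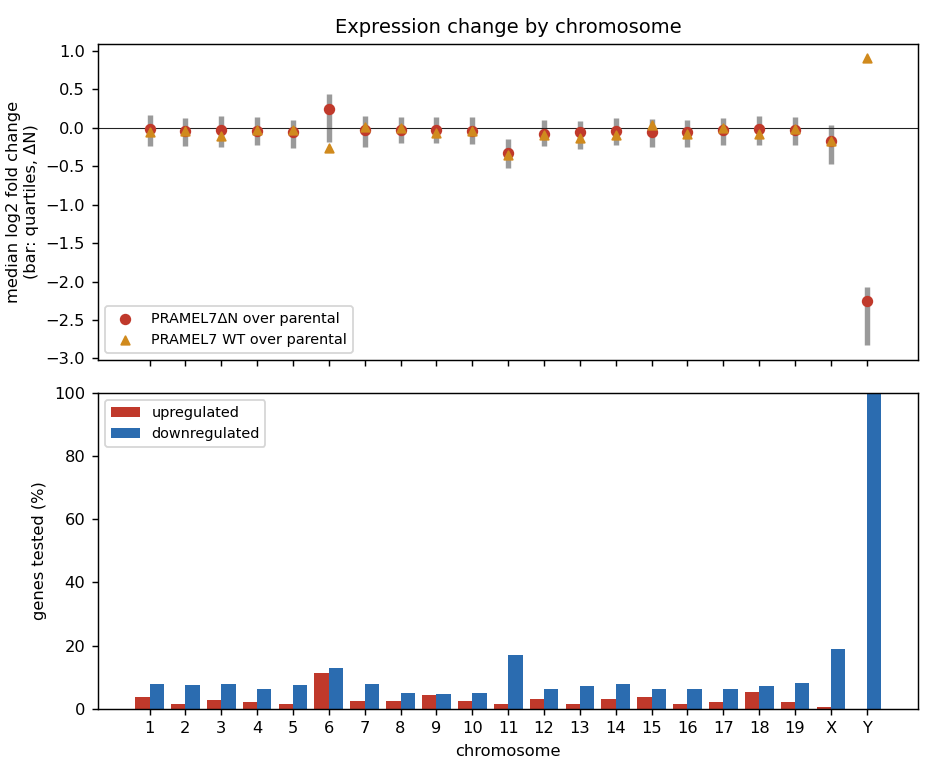
Upper panel, median log2 fold change of the genes tested on each chromosome (y axis) for PRAMEL7ΔN (red circles, grey bars give the quartiles) and PRAMEL7WT (orange triangles), both over the same parental ESC libraries. Lower panel, percentage of genes upregulated (red) and downregulated (blue) in PRAMEL7ΔN, with 11.4% and 12.8% on chromosome 6 and 1.63% and 17.0% on chromosome 11.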

How the data were processed

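RNA-seq of 3 mouse ESC lines with 2 libraries each was used. Per the study's methods, the authors filtered ribosomal reads, trimmed, mapped with STAR to mm10 and derived RPKM from coverage of exons, and deposited RPKM per gene name. Multiplied by the gene span of GENCODE vM21, introns included, the deposited RPKM fell within 0.1 of whole reads for 98.1 to 98.4% of values up to 20 reads, against 43.4 to 45.7% with exon length. They were converted to CPM with the span and a constant, which keeps the authors' scaling between libraries. Of 50978 names, 176 were repeated or turned into dates, 2796 had no match and 66 had several. The deposited tables of the authors' own comparisons (fold changes, standard errors and p-values) were not used, and ChIP samples were not analysed here. Use of strand in counting is not given in the sources used here.

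Genes above 1 CPM in at least 2 of 6 libraries (12914, of which 12913 are described) were tested on log2(CPM + 1), a scale that understates changes of low genes, in one limma 3.58.1 fit of the 3 lines (R 4.3.3, variance trend, Benjamini-Hochberg adjustment over all genes). Each count of reads carries counting error, and a gene without reads was given a floor of 3 reads over both libraries of a line.

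The genes and lists were chosen with earlier results of these data known. Named were Pramel7, the 12 genes per direction with the largest change (adjusted p under 0.05, mean of at least 10 CPM, libraries of the lines not overlapping), and in each list up to 4 called members with the largest change or, with fewer than 2 calls, the 2 of highest level. The cell type markers, Cul2, Uhrf1, Dnmt1, Kdm5d, H19, Adcy4, Setd5, Thumpd3 and the Rosa26 transcript were named outside this rule, after their values were seen. Alternatives were other pseudocounts, filters, scalings, fits and limits, leaving out each library and, chosen after seeing the data, leaving out chromosomes and a crossed block. A few genes that this rule names are not reported here.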

Additional observations from a re-analysis of the deposited data

Results flagged for a closer look

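Among 191 named genes, 164 of them called in ΔN, 12 were called in opposite directions in the derived lines against the same parental libraries. The same share over all genes tested was not counted, and many named genes were picked for large changes in ΔN. A difference between the derived lines is fixed by how the 12 genes were chosen, and its size is given as a description. Higher in ΔN than in the full-length line were Emp1, with a log2 difference of 2.51, Abca1, with 2.33, and Peg10, with 1.62. The other 9 were lower in ΔN. Of these, the Y-linked genes Eif2s3y, Ddx3y and Uty had log2 differences of -4.79, -3.84 and -3.16, and the X-linked Rhox5 and the predicted gene Gm18336 had -4.08 and -3.10. The ribosomal protein paralogues Rpl39l and Rpl10l had -3.94 and -1.79, Ephx2 had -2.74, and Plagl1 had -2.17. The calls against parental ESCs were lost without parental replicate 2 for Peg10 and without ΔN replicate 1 or parental replicate 2 for Rpl10l. Each derived line is 1 clone, and the clones had unequal Pramel7 RNA.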

How the results depend on the processing

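The 370 upregulated and 1086 downregulated genes became 193 up and 453 down with a pseudocount of 5, 245 up and 480 down with a filter of 10 CPM, 604 up and 720 down with quantile normalization, 17 up and 25 down with RPKM as deposited, where fewer genes were tested (2347), 807 up and 1759 down with no fold limit, and 59 up and 364 down with a limit of 1. Leaving out each library gave 181 to 595 upregulated and 584 to 1518 downregulated genes. Within 1.5 times were 400 up and 1129 down with a pseudocount of 0.1, 252 up and 795 down with no filter, 409 up and 1130 down with voom on whole reads, 534 up and 880 down with median-ratio scaling, 362 up and 1079 down with limma without trend and 322 up and 925 down with a fit of the compared libraries alone. No gene was called in the opposite direction in the 15 settings of this kind. The cause of these shifts was not tested. Some settings, but not all, also held fewer genes or libraries. The lines share replicate numbers, which are only numbers. Deviations of same-numbered libraries correlated at -0.25 across genes between parental ESCs and ΔN. The replicate block gave 343 up and 1000 down, and a block with the numbers crossed, chosen after seeing the data, gave 402 up and 1173 down. Of 164 named genes with a call, 98 kept it in each setting in which they had a value, RPKM as deposited and the crossed block not included. Under the filter of 10 CPM 63 of the 164 had no value, and 72 had a value and kept the call in all of these settings. Losses were most frequent without ΔN replicate 1 (47 genes). Lists with 1 or 2 calls often gained or lost a call with a single library. Genes below 10 CPM rest on few reads, and with 2 libraries a line their calls are the least firm.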
